A study of Bos taurus with 8 samples.

Results

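The 8 genes described here encode proteins of the cell contacts of epithelia and a transcription factor of epithelia: the claudins CLDN1 and CLDN10, the junctional adhesion molecules F11R and JAM2, the desmosomal proteins DSC2, PKP1 and PKP3, and the transcription factor GRHL1. All probes that the array's annotation assigns to these symbols were taken, which gave 20 of the 43653 gene probes, for 8 of the 12552 named genes. The genes were picked with their levels on these same arrays known, so the values of blastocysts against morulae are a description and no p-value is given for them.

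Bovine embryos were produced in vitro. The groups were the inner cell mass (ICM) and the trophectoderm (TE), both dissected by hand from blastocysts of day 9, intact blastocysts of day 9, and morulae of day 5, all from standard culture, with 2 samples of pooled material each. According to the study, ICM and TE came from the same embryos, though the sources used here do not tie the replicate numbers of ICM to those of TE, and some TE cells stay attached to a dissected ICM. Each of the 8 arrays compared 1 sample with a common pool of blastocyst RNA, so every level below is a log2 ratio of sample over pool, and a ratio near 0 in blastocysts is built into the design. The study states that blastocyst samples 1 and 2 were identical to its blastocyst pools 1 and 2. They may therefore be material of the common pool itself, not samples independent of it. Over gene probes the ratios of the 2 blastocyst samples correlated with r of -0.546, beside 0.373 for ICM, 0.520 for TE and 0.915 for morulae. Ratios are comparable between samples of 1 probe but not between probes.

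Tight junctions seal the space between epithelial cells near their apical side. Claudins form the strands that close or open that space to ions, and junctional adhesion molecules are adhesion proteins of the same region that bind polarity proteins. Desmosomes are spot-like contacts in which cadherins, the desmocollins and desmogleins, are tied through plakoglobin, plakophilins and desmoplakin to keratin filaments. In mammalian embryos the outer cells of the morula become the TE, the first epithelium, whose tight junctions allow the blastocoel to fill and whose desmosomes hold the layer together.

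The labels were checked on cell type markers. All 4 measured epiblast markers were called higher in the ICM than in the TE, and 2 of 6 trophectoderm markers (GATA3 and PAG2) were called lower in the ICM. None of the 7 measured markers of primitive endoderm, which also forms in the ICM, was called between ICM and TE: FST gave 1.26 (limma adjusted p = 0.277) and DAB2 -1.07 (adjusted p = 0.0842). The study, which took the most 3′ probe of a gene, lists HNF4A, PDGFRA, FST and RSPO3 as higher in the ICM. Here HNF4A gave -0.03 on its brightest probe, and PDGFRA and RSPO3 were not among the 7 measured. The trophectoderm markers, summed as linear ratios to the pool, reached 4.71 to 4.75 in ICM samples, 7.63 to 8.45 in TE samples, 5.54 to 6.15 in blastocysts and 1.45 to 1.87 in morulae. Oocyte and maternal markers, of which 4 of 7 were called lower in blastocysts, summed to 6.53 to 6.95 in ICM samples, 6.30 to 6.35 in TE samples, 6.70 to 7.23 in blastocysts and 26.5 to 35.1 in morulae, and the 6 measured markers of cumulus cells, which surround the oocyte, to 5.37 to 5.97, 6.21 to 7.17, 5.71 to 6.51 and 4.30 to 4.85 in the same groups. Of the cumulus markers 1, TNFAIP6, was called higher in the ICM than in the TE (log2 difference 1.12, limma adjusted p = 0.0342). None was called lower, and the median of the 6 was -0.39. The sums weigh every marker alike, and no marker of these 3 lists was at the background on all 8 arrays. What part these cells or stored transcripts have in the values below was not tested. Median sample intensities were 229.9 to 536 per array, and 90.3% to 94.8% of gene probes lay above the local background. With bulk RNA of embryo parts, fewer cells of a type and less RNA per cell cannot be told apart. The spread measured is that between 2 samples a group.

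Between blastocysts and morulae, the claudins CLDN1 and CLDN10 differed in opposite directions, as did the plakophilins PKP1 and PKP3 by their brightest probes. The junctional adhesion molecules F11R and JAM2 were both lower in blastocysts. Judged by the brightest probe of a gene, CLDN1, DSC2, PKP1 and GRHL1 were 18.7-fold to 31.6-fold higher in blastocysts, while CLDN10 was 10.8-fold, F11R 2.46-fold and PKP3 2.20-fold lower. Thus 4 of the 8 genes were at least 2-fold higher, where 10.3% of all named genes were, and 3 were at least 2-fold lower, where 7.21% were. With the adjusted p under 0.05 added, the shares of all named genes were 10.2% and 7.15%. These shares stand here for scale only, since the genes were picked on this contrast. The split of all named genes depended on the scaling: 1280 were called higher and 898 lower after loess, and 1072 higher and 1261 lower after median centring. PKP3 at -1.14 lay just past the 2-fold line and JAM2, at -0.96 or 1.94-fold lower, just short of it.

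**Figure D1:**
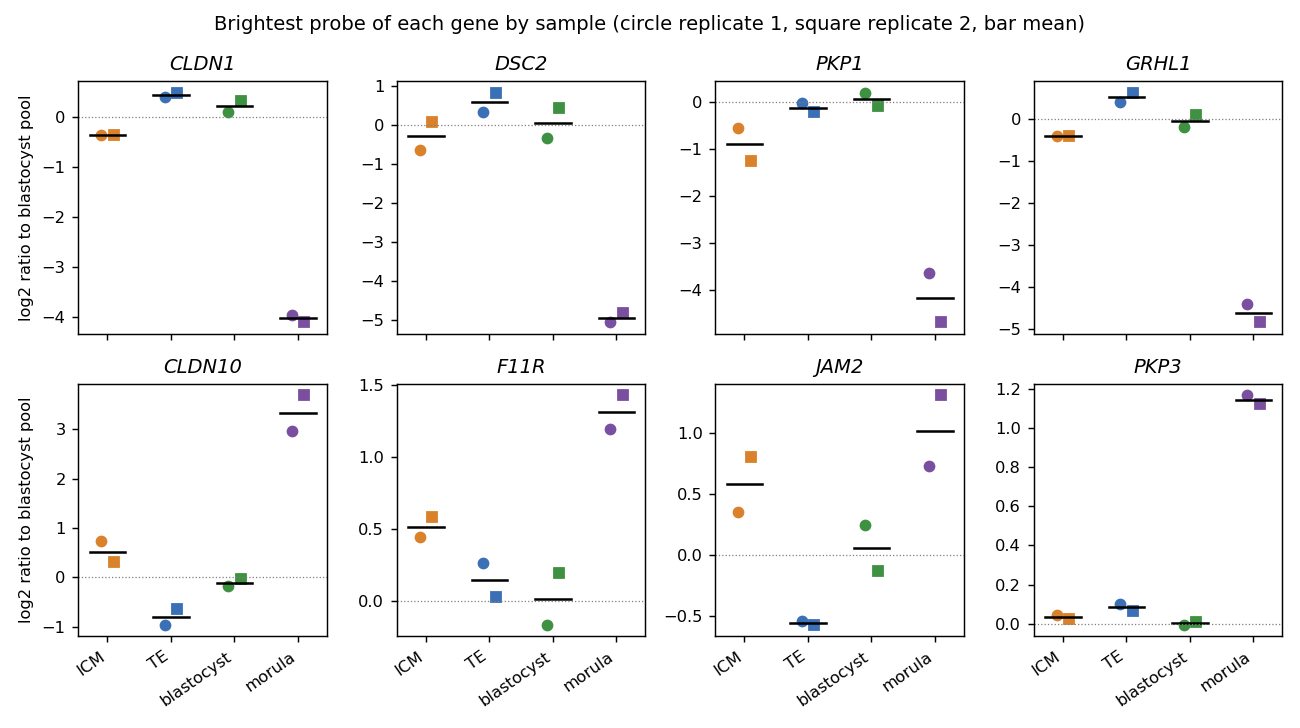
Log2 ratio to the blastocyst pool (vertical axis, a separate scale for each gene) of the brightest probe of the 8 genes in each sample of ICM, TE, blastocyst and morula. Circles are replicate 1, squares replicate 2 and bars the mean of the 2 samples. The upper row holds the 4 genes that were lowest in morulae, between -3.65 and -5.05, and the lower row the 4 that were highest there on average.

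CLDN1 is a claudin that seals tight junctions, best known from the epidermis. Its brightest probe, BTAA003702, read -0.37 and -0.37 in ICM samples, 0.40 and 0.48 in TE samples, 0.09 and 0.32 in blastocysts and -3.95 and -4.09 in morulae. No group overlapped another, in the order TE, blastocyst, ICM and morula. Blastocysts exceeded morulae by 4.22 ± 0.12 (log2 difference, SE of the fit, n = 2 each), or 18.7-fold. With normexp background correction the difference was 3.37. The other probes, BTAA009649 and BTAA017959, were dimmer and gave smaller differences in the same direction, 1.84 ± 0.16 and 1.85 ± 0.16. On BTAA017959 the spot of morula replicate 2 was not above its local background. Across the 8 samples they followed the brightest probe with r of 0.974 and 0.987, a description of 8 ratios that share 1 pool.

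CLDN10, a claudin that forms ion-selective pores, had the opposite order. BTAA004310 read 0.73 and 0.30 in ICM samples, -0.96 and -0.64 in TE samples, -0.18 and -0.05 in blastocysts and 2.96 and 3.69 in morulae, with no overlap between any groups in the order morula, ICM, blastocyst and TE. Blastocysts lay 3.44 ± 0.25 below morulae (log2, SE, n = 2 each). The second probe, BTAA033689, gave nearly the same difference, -3.38 ± 0.14, from ratios of 3.29 and 3.34 in morulae and -0.70 to 0.52 in the day 9 samples, where the spots of TE replicate 1 and blastocyst replicate 2 were not above their local background. On the linear scale of the scanner BTAA004310 gave 635 and 1206 in blastocysts against 22460 and 16369 in morulae. The pool channel of that probe read 2032 on the array of morula replicate 1 and 433 to 1092 on the other 7 arrays, whereas BTAA033689 read 574 there and 294 to 529 elsewhere. Without morula replicate 1 the difference was -3.79, and without replicate 2 it was -3.08.

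F11R, whose protein binds the polarity protein PAR3, was lower in blastocysts on all of its 3 probes, though past 2-fold on 1 of them. BTAA014133 read 0.44 and 0.58 in ICM samples, 0.26 and 0.03 in TE samples, -0.17 and 0.19 in blastocysts and 1.20 and 1.43 in morulae. TE and blastocyst samples overlapped, and morulae stood above all others. The difference was -1.30 ± 0.15 on this probe, -0.52 ± 0.11 on BTAA038657 and -0.78 ± 0.15 on BTAA026360. JAM2, or JAM-B, had 1 probe, BTAA018721, which read 0.35 and 0.81 in ICM samples, -0.54 and -0.58 in TE samples, 0.25 and -0.13 in blastocysts and 0.73 and 1.31 in morulae. Here ICM and morula samples overlapped and the TE was lowest. The spots of ICM replicate 1 and TE replicate 1 were not above their local background. The JAM2 difference of blastocysts and morulae, -0.96 ± 0.23, was -1.31 without blastocyst replicate 1 and -0.60 without blastocyst replicate 2.

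DSC2 is the desmocollin of simple epithelia. Its brightest probe, BTAA020518, read -0.64 and 0.09 in ICM samples, 0.32 and 0.83 in TE samples, -0.34 and 0.43 in blastocysts and -5.05 and -4.82 in morulae. Blastocyst samples overlapped both ICM and TE samples, both ICM samples lay below both TE samples, and morulae lay far below. The difference between blastocysts and morulae was 4.98 ± 0.15, or 31.6-fold, and the sample channel of TE replicate 2 was saturated. The second probe, BTAA000853, was not saturated on any array and gave 4.33 ± 0.09, or 20.1-fold, with the spot of morula replicate 2 not above its local background. In it the day 9 groups separated: 0.03 and -0.19 in ICM samples, 0.76 and 0.50 in TE samples and 0.12 and 0.23 in blastocysts, against -4.04 and -4.28 in morulae.

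The plakophilins, armadillo proteins of the desmosomal plaque, split. PKP1, known from the upper layers of stratified epithelia, read on BTAA026263 -0.56 and -1.25 in ICM samples, -0.02 and -0.23 in TE samples, 0.20 and -0.08 in blastocysts and -3.65 and -4.69 in morulae. Blastocyst and TE samples overlapped, the ICM lay below them and morulae far below the ICM. The difference was 4.22 ± 0.21 on this probe and 3.50 ± 0.14 on BTAA010244, but 0.07 ± 0.09 on BTAA017157, a dim probe at the 33rd percentile of intensity among gene probes.

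PKP3, a plakophilin found widely in epithelia, read 0.05 and 0.03 in ICM samples, 0.10 and 0.07 in TE samples, -0.01 and 0.01 in blastocysts and 1.17 and 1.12 in morulae on BTAA002086. The day 9 samples lay close together and morulae stood apart from them, with a difference of blastocysts and morulae of -1.14 ± 0.09. This rests on 1 of 3 probes of low to middling intensity: BTAA036099 gave 0.28 ± 0.10 and BTAA037538 -0.20 ± 0.09, with r over the 8 samples of -0.794 and 0.480 to the brightest probe. The spot of morula replicate 1 on BTAA002086 was not above its local background, and with normexp background correction the difference was -0.83, under 2-fold.

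GRHL1 belongs to the grainyhead-like factors, which in mouse epidermis control genes of desmosomes. BTAA010323 read -0.39 and -0.40 in ICM samples, 0.42 and 0.64 in TE samples, -0.19 and 0.09 in blastocysts and -4.41 and -4.84 in morulae, the same order without overlap as CLDN1. The difference of blastocysts and morulae was 4.57 ± 0.18, or 23.8-fold. It was seen on this probe alone: BTAA036646 and BTAA041656, at the 39th and 24th percentiles of intensity, gave 0.09 ± 0.13 and 0.46 ± 0.12.

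**Figure D2:**
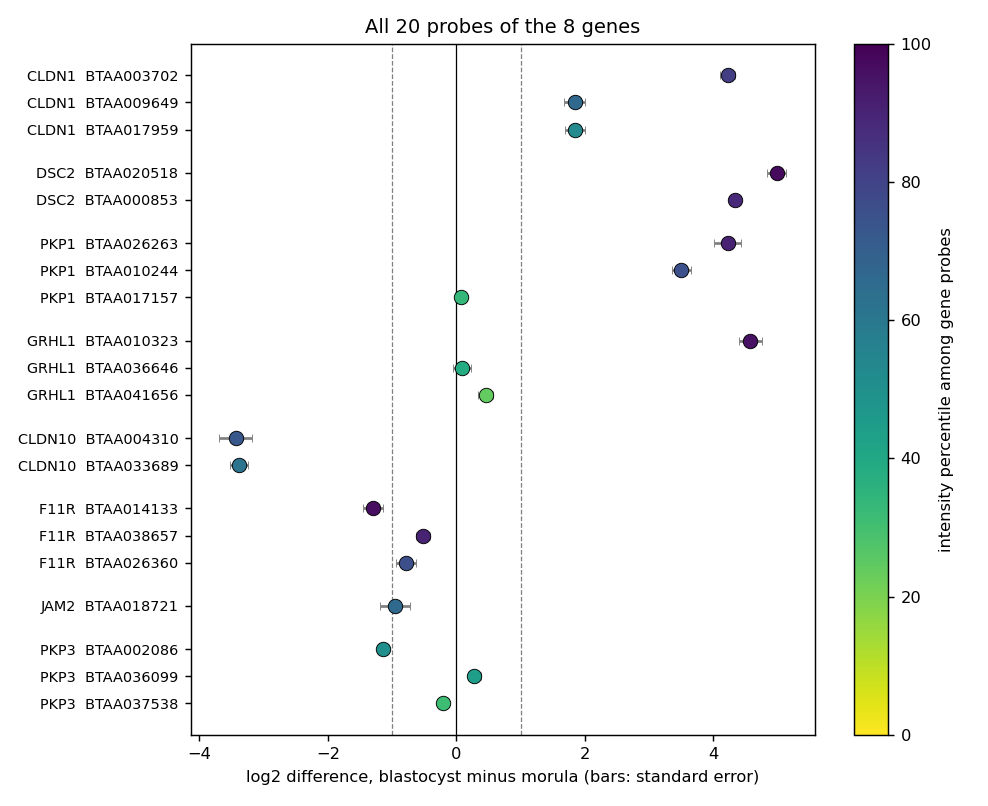
Log2 difference, blastocyst minus morula (horizontal axis), for all 20 probes of the 8 genes, with bars for the standard error of the fit, dashed lines at 2-fold and colour for the percentile of mean intensity among gene probes. Of the 20 probes 8 lay at least 2-fold higher, 4 at least 2-fold lower and 8 in between, among them probes of PKP1, PKP3 and GRHL1 whose brightest probe moved.

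Taken over the 20 probes, 8 were at least 2-fold higher in blastocysts, 4 at least 2-fold lower and 8 within 2-fold. The sign of the brightest probe was shared by every other probe of its gene except BTAA036099 of PKP3, though 3 of those other probes, of PKP1, GRHL1 and PKP3, gave only 0.07, 0.09 and -0.20. The brightest probe of all 8 genes kept its direction in each of 11 alternative treatments of the data. Some of these treatments could not alter a direction, since they left the differences themselves unchanged. They were quantile normalization, a filter on intensity, a fit without dye orientation and a fit to only the 4 arrays compared. The dissected parts were also set against morulae, with the same morula samples. For CLDN1 the ICM exceeded morulae by 3.65 and the TE by 4.46; for CLDN10 the differences were -2.81 and -4.13. For DSC2 the ICM exceeded morulae by 4.66 and the TE by 5.51, and for GRHL1 by 4.22 and 5.15. JAM2 differed from morulae by -0.44 in the ICM and by -1.58 in the TE.

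ICM and TE were compared next. The values that picked the 8 genes are not stated and may include ICM and TE levels, so the p-values below cannot be taken as independent of that choice. CLDN10 and JAM2 are left as a description because the study itself lists them for this contrast: the ICM exceeded the TE 2.49-fold in CLDN10 (log2 difference 1.32 ± 0.25) and 2.20-fold in JAM2 (1.14 ± 0.23). For the other 6 genes the difference was tested with limma, with Benjamini-Hochberg adjustment over all gene probes. None of the 6 was called at 2-fold and an adjusted p under 0.05, where 1.33% of named genes were called higher and 0.231% lower in the ICM. At an unadjusted p under 0.05 there were 4, CLDN1, DSC2, PKP1 and GRHL1, all lower in the ICM, where 11.4% of named genes were. With no fold minimum 2 of the 6 passed, CLDN1 and DSC2, both lower in the ICM, where 1.80% of named genes passed in that direction. Brightest probes of 5 of the 6 lay below the TE value, all but F11R, where 48.6% of all gene probes were lower in the ICM.

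CLDN1 in the ICM was 1.75-fold below the TE (log2 difference -0.81, 95% interval -1.09 to -0.53, limma adjusted p = 0.0265), with both ICM samples below both TE samples. Its dimmer probes gave -0.45 (adjusted p = 0.228) and -0.49 (adjusted p = 0.194). DSC2 was 1.80-fold lower in the ICM on its brightest probe (-0.85, interval -1.22 to -0.48, limma adjusted p = 0.045) and 1.64-fold lower on the unsaturated one (-0.72, interval -0.94 to -0.49, adjusted p = 0.0205). Neither gene kept an adjusted p under 0.05 when any 1 of the ICM or TE samples was left out. Without ICM replicates 1 and 2 and TE replicates 1 and 2 in turn, the adjusted p of CLDN1 was 0.169, 0.208, 0.151 and 0.172, and that of DSC2 0.277, 0.205, 0.231 and 0.202, with differences of -0.78 to -0.84 and -0.74 to -0.96. For DSC2 the adjusted p under 0.05 depended on the term for dye orientation, which is also the replicate block. That term came to 0.56 for its brightest probe (Cy5 minus Cy3). Without the term the limma adjusted p of DSC2 was 0.342, and that of CLDN1 0.0315. With normexp background correction neither gene passed, CLDN1 with an adjusted p of 0.406 (-0.76) and DSC2 with 0.304 (-0.82).

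GRHL1 lay 1.90-fold lower in the ICM (-0.92, interval -1.36 to -0.48) and had a limma adjusted p of 0.0565, which was under 0.05 in 3 of 11 alternatives, and its dim probes gave 0.12 on BTAA036646 and -0.18 on BTAA041656. PKP1 lay 1.72-fold lower (-0.78, interval -1.29 to -0.27, adjusted p = 0.124), with -0.64 on BTAA010244 and -0.03 on the dim BTAA017157. F11R gave 0.37 (interval -0.0021 to 0.74, adjusted p = 0.308) on its brightest probe, with -0.17 and -0.37 on the others, so its probes did not share a direction. PKP3 gave -0.05 (interval -0.26 to 0.16, adjusted p = 0.909) on its brightest probe, with -0.14 (interval -0.38 to 0.10) on BTAA036099 and 0.15 (interval -0.07 to 0.38) on BTAA037538. The 8 probes, of 4 genes, that were at least 2-fold higher in blastocysts were all lower in the ICM than in the TE, with a median of -0.75. Of all 3040 gene probes that were at least 2-fold higher in blastocysts 78.0% were lower in the ICM (median -0.36), and of the 365 that were at least 8-fold higher 87.4% were (median -0.71). The summed trophectoderm markers differed the same way, 4.71 to 4.75 for ICM samples and 7.63 to 8.45 for TE samples. The study stained some isolated ICMs for CDX2 and found a minority of TE cells in them. What these cells add to the ICM values was not tested here.

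**Figure D3:**
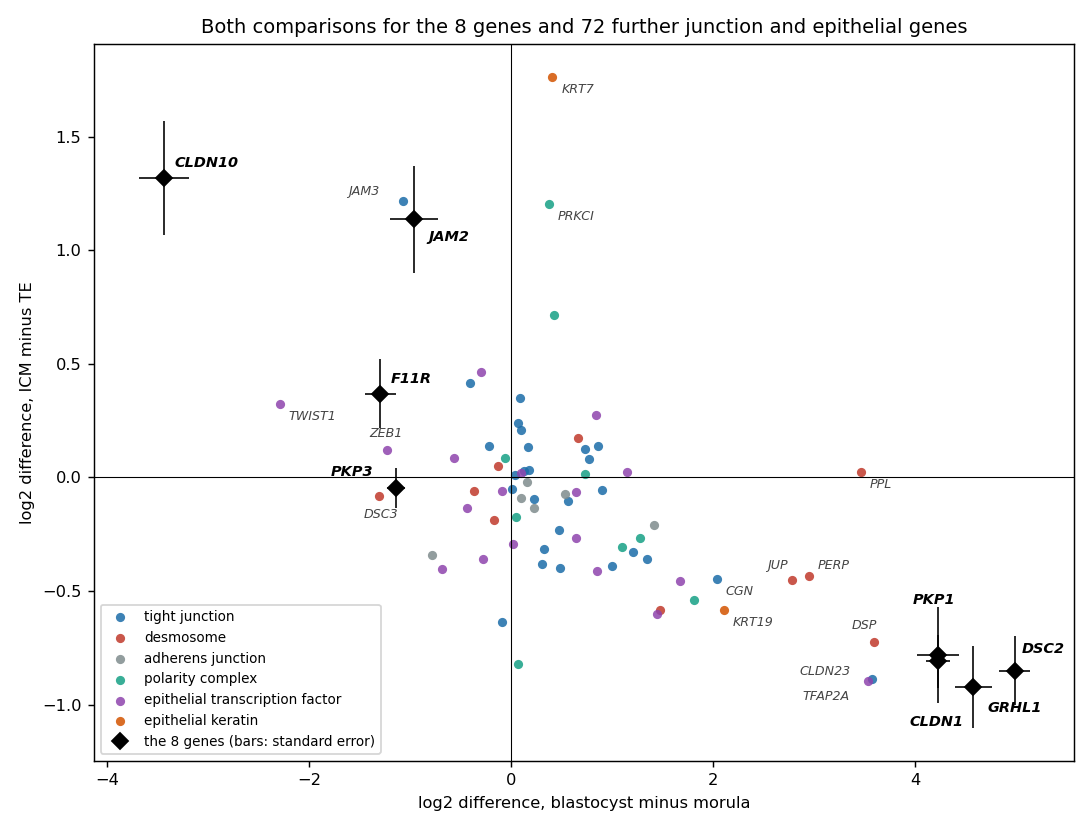
Log2 difference of ICM minus TE (vertical axis) against blastocyst minus morula (horizontal axis) for the brightest probe of the 8 genes (black diamonds, bars for the standard error of the fit) and of 72 further junction and epithelial genes coloured by list. CLDN1, DSC2, PKP1 and GRHL1 lie at the lower right, from 4.22 to 4.98 on the horizontal and -0.78 to -0.92 on the vertical axis, and CLDN10 at the upper left.

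Beyond the 8 genes, 100 genes of tight junctions, desmosomes, adherens junctions, cell polarity, epithelial transcription and simple epithelial keratins were listed, of which 72 had a probe. Of these, 19 were called higher and 4 lower in blastocysts than in morulae (26.4% and 5.56%, beside 10.2% and 7.15% of all named genes), with a median log2 difference of 0.35 beside 0.04 over all named genes. Of the 10 measured desmosomal genes 5 were higher and 1 lower, with a median of 1.07. Textbook knowledge was the source of the lists, which leave the 8 genes out. They were chosen with earlier results of these data known, so the shares are a description.

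The desmosomal genes that rose encode parts of the plaque and its membrane partners. DSP, the desmoplakin that binds keratins, was 12.0-fold higher in blastocysts (log2 3.59 ± 0.20, limma adjusted p = 0.000103). Its ratios were -0.76 and -0.29 in ICM samples, 0.07 and 0.33 in TE samples, -0.19 and -0.09 in blastocysts and -3.54 and -3.91 in morulae. PPL, the periplakin of the cell periphery, gave a log2 difference of 3.46 ± 0.25 (adjusted p = 0.00024), the desmosomal membrane protein PERP was 7.69-fold higher (adjusted p = 0.000148), and JUP, the plakoglobin shared with adherens junctions, 6.87-fold (adjusted p = 0.000181). DSG2, a desmoglein, was 2.78-fold higher (adjusted p = 0.006). DSP rested on 1 of its 6 probes, PPL on 1 of 2, and JUP and DSG2 on 1 of 3 each. With the probes of a gene averaged, PPL (1.73) and JUP (1.24) were still called, while DSP (0.63) and DSG2 (0.64) were under 2-fold.

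DSC3, a desmocollin of stratified epithelia, was the gene of the list that fell, and it is named here after its value was seen. Its ratios were -0.02 and 0.01 in ICM samples, 0.05 and 0.11 in TE samples, 0.38 and 0.09 in blastocysts and 1.48 and 1.61 in morulae, a difference of -1.31 ± 0.13 (limma adjusted p = 0.000644) on a dim probe at the 25th percentile. Both of its probes were called lower. With normexp background correction the difference was -0.61 (adjusted p = 0.199). The desmocollins thus differed in direction, DSC2 higher and DSC3 lower in blastocysts, as did the plakophilins PKP1 and PKP3, while PKP4 (0.66) and DSG1 (-0.37) were not called.

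Of the 27 measured tight junction genes 5 rose and 1 fell (18.5% and 3.70%, beside 10.2% and 7.15% of all named genes). CLDN23, a claudin, was 11.9-fold higher in blastocysts (log2 3.57 ± 0.19, limma adjusted p = 8.96e-05). It read -0.59 and 0.01 in ICM samples, 0.42 and 0.77 in TE samples, -0.09 and 0.11 in blastocysts and -3.47 and -3.66 in morulae, the group order of CLDN1. CGN, the cingulin that links tight junctions to actomyosin, was 4.09-fold higher (adjusted p = 0.000155), MARVELD3, a membrane protein related to occludin, 2.55-fold (adjusted p = 0.000586) and YBX3, a factor bound at junctions by ZO-1, 2.30-fold (adjusted p = 0.00802). Probes called were 1 of 2 for CLDN23, 1 of 3 for CGN and 2 of 4 for YBX3, and averaged over probes CLDN23 gave 1.78, CGN 0.90 and YBX3 0.76. MARVELD3, with 1 probe at the 30th percentile of intensity, gave 0.45 with normexp background correction, under 2-fold. CLDN8, chosen after its value was seen, was at the 2-fold line with 1.00, and no other claudin of the list was called: CLDN7 gave 0.73 and CLDN2 -0.41. Among the 18 claudins measured, the 2 picked ones included, CLDN1 had the highest difference and CLDN10 the lowest. Some calls near the line turned on 1 sample: CLDN8 gave 0.98 without blastocyst replicate 2 and 0.82 without morula replicate 1, and YBX3 1.00 without blastocyst replicate 1 (adjusted p = 0.0534) and 0.80 without morula replicate 1.

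The junctional adhesion molecules were all lower in blastocysts by their brightest probes. JAM3, or JAM-C, a binding partner of JAM2, fell by 1.07 on the log2 scale (2.11-fold, limma adjusted p = 0.00405), on 1 of its 3 probes and by 0.61 over their mean, with ratios of 0.75 and 0.77 in ICM samples, -0.16 and -0.76 in TE samples, -0.07 and -0.22 in blastocysts and 0.93 and 0.93 in morulae. The ICM and morula samples lay above all TE and blastocyst samples. In the ICM, JAM3 was 2.33-fold above the TE (log2 1.22, adjusted p = 0.0241), so that JAM2 and JAM3 shared the order morula, ICM, blastocyst and TE. The call against the TE was lost without ICM replicate 1 (adjusted p = 0.114), ICM replicate 2 (0.196) or TE replicate 2 (0.103), with normexp background correction (0.106) or with only the 4 arrays compared (0.0534), and the stage difference was under 2-fold without morula replicate 2 (-0.95).

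**Figure D4:**
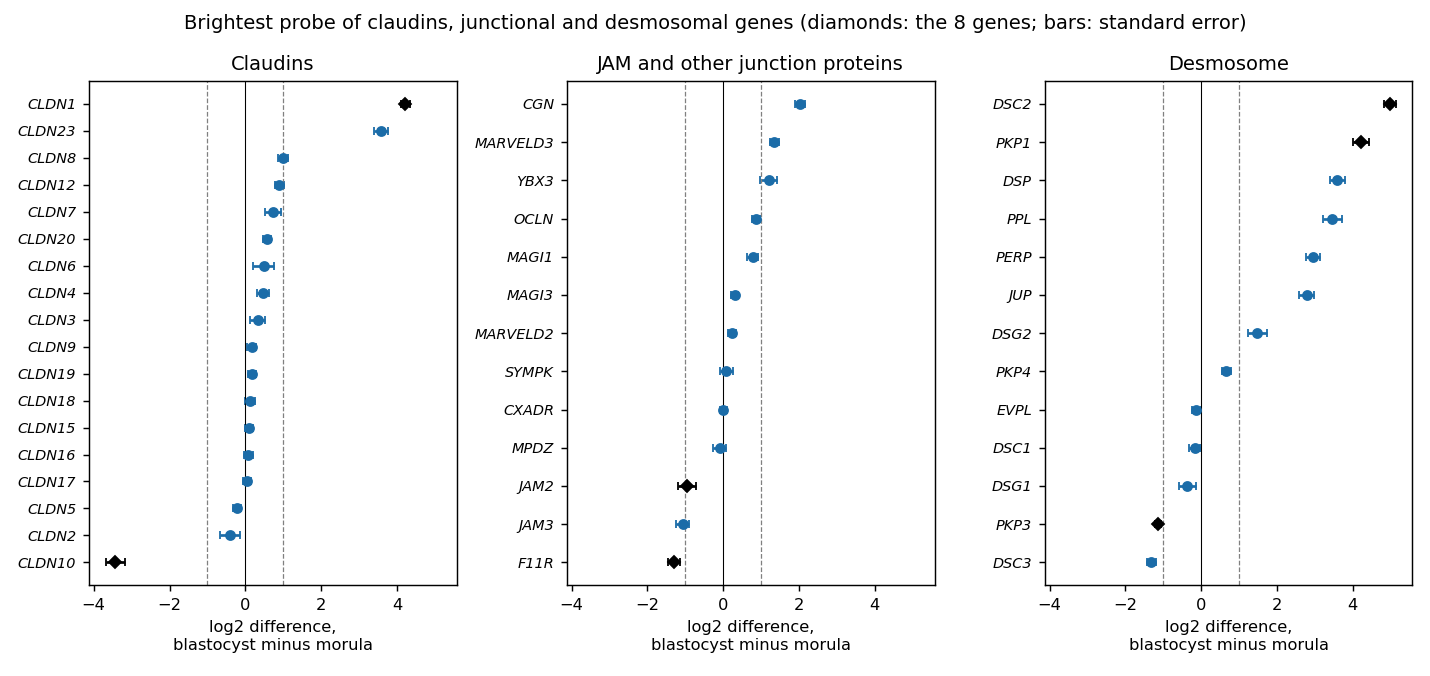
Log2 difference, blastocyst minus morula (horizontal axis), of the brightest probe of each measured claudin, of junctional adhesion molecules and other tight junction genes, and of desmosomal genes, sorted within each panel, with bars for the standard error of the fit and dashed lines at 2-fold. Black diamonds are 7 of the 8 picked genes and blue circles other genes of the families. CLDN1 and CLDN23 stand at one end of the claudins and CLDN10 at the other, and DSC2, PKP1, DSP, PPL, PERP and JUP stand apart from PKP3 and DSC3.

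In the remaining lists the adherens junction gene CTNNB1, the beta-catenin, was 2.66-fold higher in blastocysts (limma adjusted p = 0.000597). It was the 1 called of 6 (16.7%, beside 10.2% of all named genes called higher), while CTNND1 gave 0.23 and CDH3 0.16. These are values of brightest probes, and of the 3 probes of CDH3 another 1 was called lower in blastocysts. Of 9 polarity genes 3 rose (33.3%, beside 10.2% of all named genes). DLG1 was 3.49-fold and SCRIB 2.14-fold higher, both of the basolateral complex, and the atypical protein kinase C gene PRKCZ 2.42-fold (adjusted p = 0.000367, 0.00695 and 0.000294). DLG1 was called on 1 of 4 probes and PRKCZ on 1 of 3, and over the mean of their probes they gave 0.51 and 0.82, under 2-fold. SCRIB gave 0.91 without blastocyst replicate 1 and also without morula replicate 2, under 2-fold. PARD3 (0.73) and PRKCI (0.37) were not called. KRT19, a keratin of simple epithelia, was 4.31-fold higher (adjusted p = 0.000238), and both of its probes were called.

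Of 18 measured genes listed for epithelial transcription, among them splicing regulators and repressors of epithelial genes, 4 rose and 2 fell. These shares were 22.2% and 11.1%, beside 10.2% and 7.15% of all named genes. TFAP2A, which also stands among the trophectoderm markers, was 11.5-fold higher in blastocysts (log2 3.53 ± 0.18, limma adjusted p = 8.56e-05), ELF5 3.19-fold (adjusted p = 0.00066), OVOL1 2.72-fold (adjusted p = 0.000567) and the splicing regulator ESRP1 2.21-fold (adjusted p = 0.0124), which gave 0.80 without blastocyst replicate 2 (adjusted p = 0.0568) and 0.76 without morula replicate 2. TWIST1 and ZEB1, known as repressors of epithelial genes, were 4.90-fold (adjusted p = 5.31e-05) and 2.35-fold lower (adjusted p = 0.00232). With normexp background correction ELF5 gave 0.76 (adjusted p = 0.0588) and TWIST1 -1.43 (adjusted p = 0.0154). Averaged over probes, TFAP2A gave 1.82, OVOL1 0.62, ESRP1 0.61 and ZEB1, called on 1 of 4 probes, -0.55. The relatives of GRHL1 did not follow it: GRHL2 gave -0.43 ± 0.21 (adjusted p = 0.187) and GRHL3 0.02 ± 0.10 (adjusted p = 0.912). ESRP1, ZEB1, GRHL2 and GRHL3 were named after their values were seen. TFAP2C (-0.30) and KLF5 (0.84) were not called.

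Of the 72 genes 2 were called between ICM and TE, both higher in the ICM, JAM3 and KRT7, where 1.33% of all named genes were. KRT7, a keratin of simple epithelia, read 0.87 and 0.65 in ICM samples and -1.10 and -0.91 in TE samples (3.40-fold, limma adjusted p = 0.0285), with 0.22 and -0.52 in blastocysts and -0.11 and -1.01 in morulae. Without each of the ICM and TE samples in turn its adjusted p was 0.0584 to 0.213, without the replicate block 0.0513 and with normexp background correction 0.161. PERP (-0.43) and DSG2 (-0.58) were lower in the ICM without passing the test. Over the 72 genes 44 had values below 0, where 48.6% of all gene probes did. Their median was -0.09, beside 0.008 over all named genes.

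Across the 8 samples, with the dye term removed, the genes most like each of the 8 in their ratios were sought. Candidates were the brightest probes of 2708 or 2709 other genes. Their pool channel was above background on all 8 arrays and their group means spanned at least 2-fold. GSR and ALDH1A3 were closest to CLDN1 (r of 1.000 for each), GALNT12 and ACOT7 to DSC2 (1.000 and 0.999), GCLM and LIPH to PKP1 (0.999 for each) and HSD17B11 and PTPRJ to GRHL1 (1.000 for each). For the genes high in morulae these were NEFL and CTPS1 for CLDN10 (0.998 for each), ZNF304 and RBM4B for F11R (0.987 and 0.986), UTP3 and IL2RG for PKP3 (0.999 for each), and TMEM17 and PCP4L1 for JAM2 (0.983 and 0.978). Since morulae set most of the range, high r is common here, and all ratios share 1 pool. ALDH1A3, a retinaldehyde dehydrogenase, differed by 6.04 between blastocysts and morulae and by -1.14 between ICM and TE, more than CLDN1 in both comparisons.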

How the data were processed

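RNA of ICM, TE, blastocyst and morula samples, 2 per group, was hybridized with a blastocyst pool on 8 two-colour arrays of 45220 spots, where Cy3 marked samples numbered 1 and Cy5 those numbered 2. The authors deposited intensity values, which are mean spot intensities of both channels, not normalized, and come with each spot's local background. In the series matrix the authors deposited log2 ratios of sample over pool, after loess and their dye bias correction, which served as an alternative. Their direction was checked on the intensities (r of 0.727 to 0.993 per array).

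With R 4.3.3 and limma 3.58.1, each array was normalized by loess on mean intensities without background subtraction, a step the methods leave unstated, leaving out 1567 control spots. Group means and a dye term were fitted to all 8 arrays, with empirical Bayes moderation (3 residual and 3.17 prior degrees of freedom) and Benjamini-Hochberg adjustment over 43653 gene probes. The study's methods fitted sample, array and dye effects and took the most 3′ probe of a gene; here the probe of highest mean intensity stood for a gene and all probes of the 8 genes are given. Dye orientation equals the replicate number, so its term is the replicate block. Replicate differences correlated across probes between groups with r of 0.201 to 0.486 over 6 pairs of groups, 0.338 for ICM and TE, though probes are no replicates and no source used here ties the numbers to shared embryos. Calls needed 2-fold and an adjusted p under 0.05, and a spot was above background past the local mean by 2 standard deviations. Symbols came from the platform annotation, 11608 of them current and 944 found as synonyms in RefSeq. The number of arrays limits the precision.

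The members and lists were chosen with earlier results of these data known. Named genes were every probe of the members, per list up to 4 called genes of largest difference in each comparison and up to 2 uncalled ones of highest intensity, and per member the 2 genes of highest correlation. Alternatives were normexp background correction (offset of 50), median centring, quantile normalization, the series matrix, probes in the upper 60% of intensity, no replicate block, only the 4 arrays compared, a 1.5-fold minimum, the mean over probes and each replicate left out. The model was tested on simulated data. Figures were drawn with Python 3.11.15 and matplotlib 3.10.9. MAPK-inhibited samples were not analysed here, and neither were probe sequences.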

Additional observations from a re-analysis of the deposited data

How the results depend on the processing

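Between blastocysts and morulae 1280 named genes were called higher and 898 lower. A 1.5-fold minimum gave 2044 and 1767, and averaging each gene's probes 771 and 639. Normexp background correction gave 907 and 732, median centring 1072 and 1261, and the fit without the replicate block 1268 and 893. Leaving out a replicate gave 1222 to 1312 higher and 862 to 969 lower. Between ICM and TE 167 were called higher and 29 lower in the ICM. Normexp background correction gave 27 and 0, median centring 146 and 78, a 1.5-fold minimum 313 and 196, the mean over probes 92 and 14, and the fit without the replicate block 144 and 22. Leaving out a replicate gave 17 to 68 higher and 0 to 2 lower. Of the further junction and epithelial genes, 19 higher and 4 lower in blastocysts became 12 and 2 with the mean over probes, 2 lower with probes in the upper 60% of intensity, and 17 to 20 and 3 to 5 with a replicate left out. The 2 called higher in the ICM than in the TE became 0 with normexp, 1 without the replicate block, 1 with only the 4 arrays compared and 0 to 1 with a replicate left out, and with median centring 1 was called lower, where none was before. For the further genes between blastocysts and morulae, normexp gave 13 higher and 3 lower, and median centring 15 and 4. Leaving out a sample leaves fewer degrees of freedom, and the cause of the other shifts was not tested. The balance of all genes between blastocysts and morulae turned with median centring, as the counts above show, and no other result changed direction. GRHL1 was called lower in the ICM at 2-fold after median centring (-1.06, limma adjusted p = 0.0421). Its adjusted p was also under 0.05, below 2-fold, with probes in the upper 60% of intensity (0.0387) and with only the 4 arrays compared (0.0427), in a range up to 0.313. The median difference over all named genes moved by less than 0.1 with any scaling.

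The 2 samples a group and the shared blastocyst pool limit these values. The sample channel of DSC2 was saturated on 1 array. Probe positions within the transcripts were not analysed here, so transcript forms that a probe misses were not told apart from low levels.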
